A study of Mus musculus with 11 samples.

Results

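The exome call table of the KPP-eGFP cell line and its tumours held 621 variants in 304 genes, and 21 of them lay in 2 genes with dense calls at low allele fractions: 11 in Fbxo22 on chromosome 9 and 10 in the predicted gene Gm10800 on chromosome 2. Members were all variants that the call table places in either gene, which gave 63 of 3265 calls, 44 in Fbxo22 and 19 in Gm10800. Both genes were picked for the number, spacing and low fractions of these calls. Tumour calls were also limited to variants already found in the culture. Calls and fractions of the members are therefore given as a description. Fits of all variants between culture and tumours are given below, but nothing is read from them for the members. A call is one variant found in one library, and the variant allele fraction is the share of reads at a site that carry the alternate base.

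KPP-eGFP is a clonal, eGFP-labelled line from a pancreatic ductal adenocarcinoma of a mouse. Tumours grown from it in the skin as STAMP arrays (many small tumours seeded in laser-made pores of the ear) were compared with the cultured line: 3 culture libraries (1-B, 2 and 2-B), 2 immune-inflamed tumours (1-3 and 2-1), 2 immune-excluded tumours (1-4 and 2-2) and 1 immune-desert tumour (2-3), collected 3 weeks after implantation. The study used male mice aged 8 to 12 weeks, and spleen DNA of the wild-type host strain served as the normal reference for calling. The paper describes its exome material after implantation as tumour biopsies that were pooled, without the number per pool. A tumour named below is thus 1 library, whose fractions may average several small tumours. All 8 libraries come from 1 clonal line. The labels do not say whether the culture libraries are separate cultures or which tumours share a mouse.

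FBXO22 is an F-box protein, the substrate-binding subunit of an SCF (SKP1, CUL1 and F-box protein) ubiquitin ligase, which marks selected proteins for degradation by the proteasome. Gm10800 is a gene model predicted from the genome sequence, with no known function. Short reads from repeated sequence can be placed at any of several near-identical copies by an aligner, whereas a unique exon takes reads from 1 place.

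Fbxo22 (ENSMUSG00000032309.15) spans chr9:55208925-55224433 on the plus strand of GRCm38 and has 7 coding exons with 1206 coding bases. Its variants, written as reference base, GRCm38 position and alternate base, were G9S (G55209076A), R17L (G55209101T), E27del (CGGA55209128C, an in-frame deletion), L36M (C55209157A) and R43W (C55209178T) in exon 1. A change of the splice acceptor of intron 1 (A55209351G) was followed by R49C (C55209360T) and R56H (G55209382A) in exon 2. The stop-gain R95* (C55213915T) lay in exon 3, and N225T (A55221070C) and G252V (G55221151T) lay in exon 6. Exons 4, 5 and 7 held 0 variants. The reference sequences around these positions are shown because the calls stand closer together than the 75 bases of 1 read, with the changed or deleted bases in capitals.
Fbxo22 exon 1, chr9:55209052-55209188, plus strand: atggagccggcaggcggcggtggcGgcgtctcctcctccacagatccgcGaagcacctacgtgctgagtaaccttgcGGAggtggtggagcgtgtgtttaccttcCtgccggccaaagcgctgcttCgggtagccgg
End of intron 1 and start of exon 2, chr9:55209341-55209400, plus strand: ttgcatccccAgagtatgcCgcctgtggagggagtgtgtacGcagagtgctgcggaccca
Start of exon 3, chr9:55213909-55213938, plus strand: aatgttCgaatcttaccacagacagttctc
Part of exon 6, chr9:55221056-55221165, plus strand: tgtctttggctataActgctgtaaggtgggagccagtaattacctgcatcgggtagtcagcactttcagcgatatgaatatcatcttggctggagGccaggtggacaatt

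Gm10800 (ENSMUSG00000075014.1) spans chr2:98666547-98667301 on the minus strand, and its 5 coding exons with 660 coding bases are separated by introns of 65, 25, 1 and 4 bases. From the start of the protein its variants were H6R (T98667285C), D7Y (C98667283A), H13R (T98667264C), R16S (G98667256T) and V19E (A98667246T). They continued with S60F (G98667119A), R64S (G98667108T), a splice donor change (C98667065A), H126L (T98666895A) and M209L (T98666582A). Reference and alternate bases are those of the plus strand. The stretch below holds 7 of the 10 variant positions, in capitals, and shows the run of similar short blocks in which they sit.
Gm10800 first coding exons, chr2:98667088-98667301, plus strand: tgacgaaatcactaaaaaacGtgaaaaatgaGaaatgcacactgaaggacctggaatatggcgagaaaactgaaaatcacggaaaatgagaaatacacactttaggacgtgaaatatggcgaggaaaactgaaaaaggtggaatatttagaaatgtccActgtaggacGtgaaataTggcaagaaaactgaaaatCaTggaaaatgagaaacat

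In Fbxo22, 8 of the 11 variants lay within 307 bases of exons 1 and 2 and the intron between them, which is 26.1 variants per kb. The 10 gaps between neighbours ran from 9 to 7155 bases with a median of 28, and 6 of them were at most 75 bases. In Gm10800 the 10 variants spanned 704 bases, or 14.2 per kb, with gaps of 2 to 313 bases, and 6 of 9 gaps were at most 75 bases. Between its first and last variant, the measure used for Gm10800, Fbxo22 had 0.911 variants per kb. Among the 30 genes with at least 5 variants, ordered by this measure, Gm10800 ranked 12 and Fbxo22 over its whole span ranked 17. The 3 highest were Ifna9 at 48.1, Ifna11 at 40.2 and Gm16686 at 29.6 per kb, and Ifna genes encode type I interferons. Per kb of coding sequence, among the 28 of these genes with a coding length, Gm10800 carried 13.6 coding variants and ranked 6, and Fbxo22 carried 8.29 and ranked 12.

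**Figure D1:**
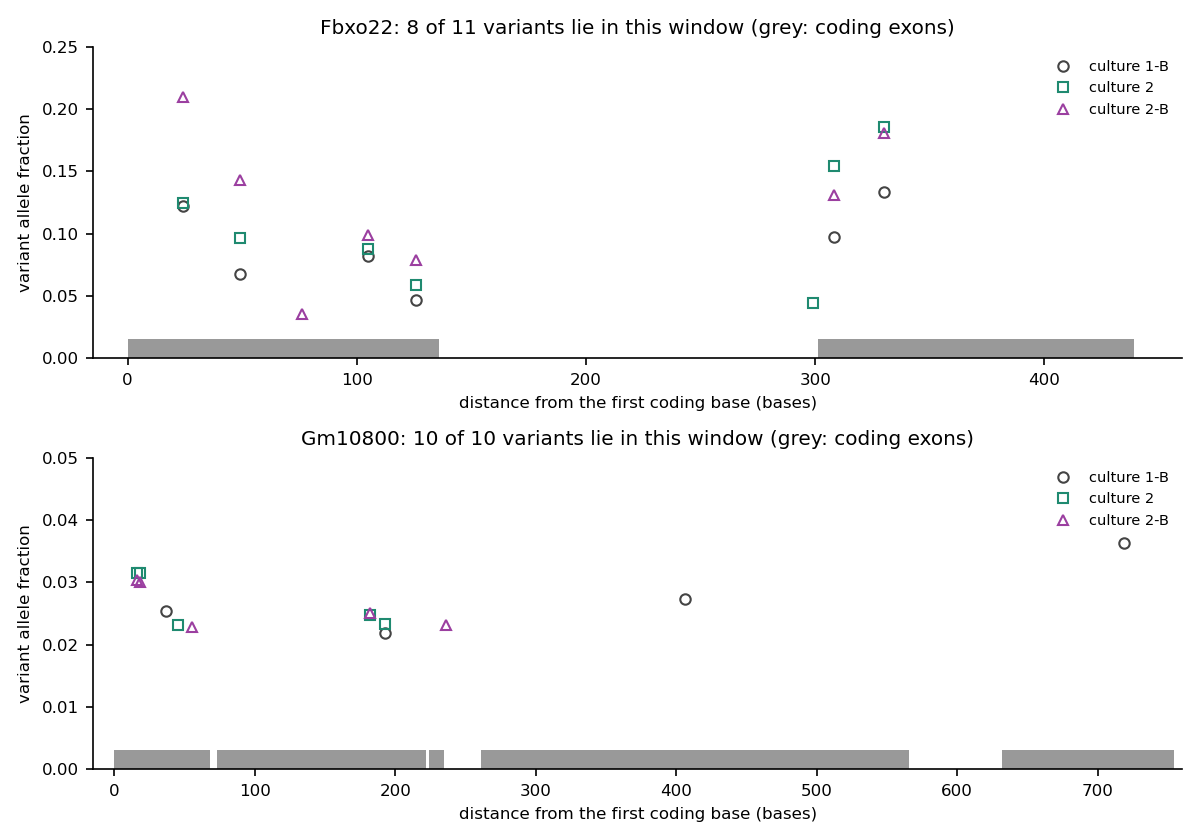
Variant allele fraction in each of the 3 culture libraries (symbols) against the distance in bases from the first coding base, for Fbxo22 (top) and Gm10800 (bottom), with coding exons in grey. The 8 Fbxo22 variants of the window stand in exons 1 and 2 or next to exon 2 at fractions from 0.0356 to 0.210, and the Gm10800 variants lie between 0.0219 and 0.0363.

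The Fbxo22 fractions ranged from 0.0319 to 0.210 over all calls, with a median of 0.0993 in the culture and 0.0545 in the tumours. Read depth is unknown, since the call table holds 0 depth values, and errors are therefore spreads between libraries. Of the 44 calls, 43 were tier 1 and 1 was tier 2 (tier 1 is the stricter of 2 Strelka filters). The fraction in the spleen was 0 for each of the 11 variants.

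The most frequent was R56H, at 0.134, 0.186 and 0.181 in culture 1-B, 2 and 2-B (mean 0.167 ± 0.0288, SD, n = 3). It was called at 0.0534 in the inflamed tumour 1-3, 0.0563 in the excluded tumour 1-4 and 0.0702 in the desert tumour. All 3 culture values lay above all 3 tumour values. G9S stood at 0.122, 0.125 and 0.210 in the same order of culture libraries (mean 0.152 ± 0.0498), and at 0.0769 and 0.0619 in the excluded tumours 1-4 and 2-2. Its value in culture 2-B was the highest of any Fbxo22 call. R49C, 22 bases before R56H, reached 0.0973, 0.154 and 0.131 in the culture (mean 0.128 ± 0.0287), and its only tumour call was 0.0556 in the desert tumour.

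R17L measured 0.0672, 0.0968 and 0.143 in culture 1-B, 2 and 2-B, and 0.0526 in the excluded tumour 1-4. N225T measured 0.0808, 0.0993 and 0.139 in the culture, then 0.0583 in the excluded tumour 1-4 and 0.0446 in the desert tumour. For both, each tumour value was below every culture value and culture 1-B had the lowest and culture 2-B the highest of the culture values. L36M was the Fbxo22 variant called in the most libraries, 7 of 8, with 0.0824, 0.0873 and 0.0993 in the culture (mean 0.0897 ± 0.00870). Its tumour values were 0.0407 (inflamed 1-3), 0.0483 (excluded 1-4), 0.0471 (excluded 2-2) and 0.0580 (desert), and it was not called in the inflamed tumour 2-1. It had the narrowest culture spread of the 7 variants called in all 3 culture libraries, with a highest value 1.21 times the lowest. R43W, 21 bases on, measured 0.0471, 0.0588 and 0.0788 in the culture, 0.0319 in the excluded tumour 2-2 and 0.0515 in the desert tumour, so its culture and tumour values overlapped.

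The stop-gain R95* was called at 0.149 in culture 1-B and 0.0692 in culture 2-B, with no call in culture 2. It was the only Fbxo22 variant of the inflamed tumour 2-1, at 0.0545, and stood at 0.0721 in the desert tumour. The desert value therefore exceeded that of culture 2-B. No tumour had the remaining 3 variants. G252V had 0.125 in culture 2 and 0.148 in culture 2-B, E27del had 0.0356 in culture 2-B, and the splice acceptor change had 0.0444 in culture 2, its tier 2 call. No Fbxo22 variant (0 of 11) was called in all 8 libraries.

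**Figure D2:**
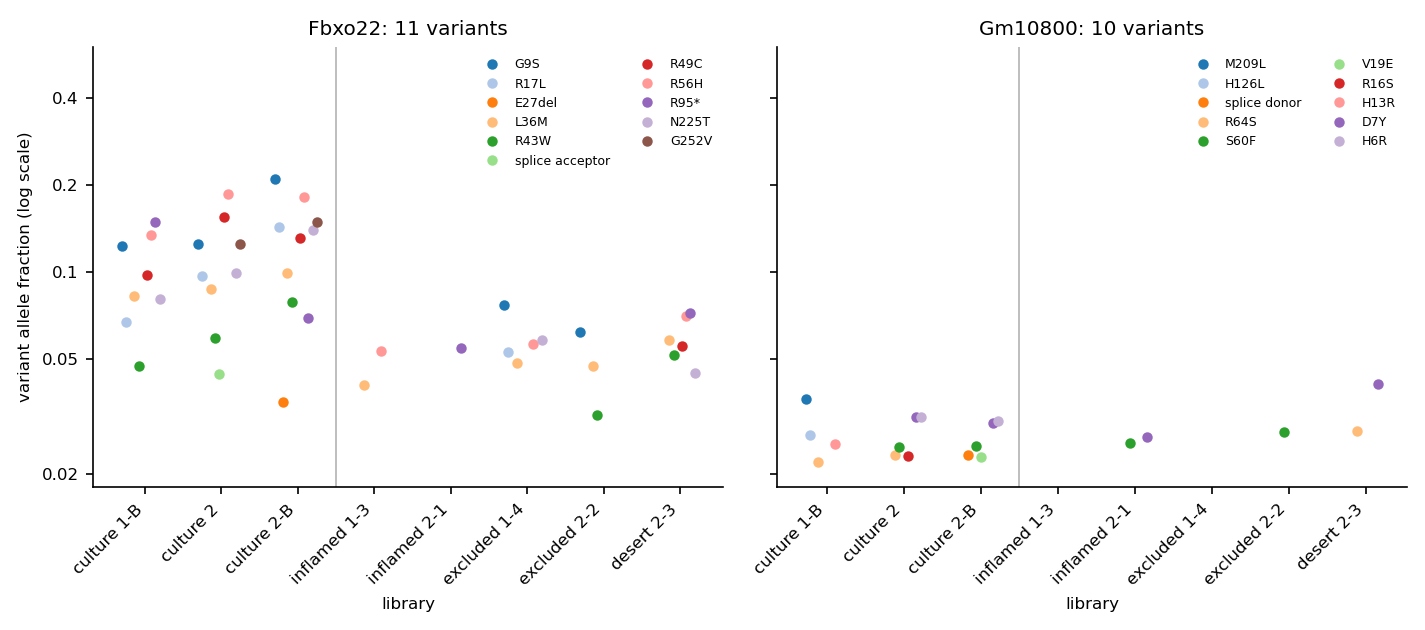
Variant allele fraction on a log axis for each called variant (1 colour each) in the 8 libraries, culture left and tumours right of the grey line, for Fbxo22 and Gm10800. Fbxo22 spreads from 0.0356 to 0.210 in the culture and lies between 0.0319 and 0.0769 in tumours, while Gm10800 stays between 0.0219 and 0.0409 in both.

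Alleles carried together on each copy of 1 haplotype share 1 fraction apart from the sampling of reads, so neighbours within 1 read length were set side by side. The highest Fbxo22 fraction was 3.16, 4.19 and 5.90 times the lowest in culture 1-B, 2 and 2-B. G9S exceeded R17L, 25 bases away, in 4 of 4 libraries that had both, by 1.82, 1.29 and 1.47 times in the 3 culture libraries. L36M exceeded R43W in 5 of 5 libraries (1.75, 1.48 and 1.26 times in the culture). R56H exceeded R49C in 4 of 4 libraries (1.38, 1.21 and 1.38 times in the culture). The order within these 3 pairs was thus the same wherever both were called. R17L and L36M, also within 1 read length, did not keep 1 order. L36M was higher in culture 1-B (0.0824 against 0.0672). R17L was higher in culture 2 (0.0968 against 0.0873), culture 2-B (0.143 against 0.0993) and the excluded tumour 1-4 (0.0526 against 0.0483). Whether any of these gaps exceeds the counting error of reads cannot be given without depth. In exon 6, 81 bases apart, G252V was 1.26 times N225T in culture 2 and 1.06 times in culture 2-B.

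The 3 culture libraries also differed as a set. Fbxo22 fractions were higher in culture 2 than in 1-B for 7 of 7 variants called in both, with a median ratio of 1.25, and higher in 2-B than in 1-B for 7 of 8, with a median ratio of 1.51, R95* being the exception. Among the 214 other variants with a mean culture fraction under 0.25, 41 of 73 were higher in culture 2 than in 1-B (median ratio 1.04) and 40 of 90 were higher in 2-B (median ratio 0.965). These are descriptions over variants of the same libraries, and variants that lie within 1 read length share reads.

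Fbxo22 calls numbered 8, 9 and 10 of 11 in culture 1-B, 2 and 2-B. They numbered 2 in the inflamed tumour 1-3, 1 in the inflamed 2-1, 5 in the excluded 1-4, 3 in the excluded 2-2 and 6 in the desert tumour. The means were 9 ± 1 (SD, n = 3) and 3.40 ± 2.07 (n = 5), and the groups did not overlap. Since a variant entered the table only through the culture, a higher count there is favoured by construction, and nothing is read from this difference. The desert and the excluded tumour 1-4 had the most calls, and they also had the most calls over all variants, 399 and 361, against 310 to 323 in the other 3 tumours. Of the 214 other variants under 0.25, 20.1% were called in the desert tumour, 12.1% in the excluded 1-4, 11.7% in the excluded 2-2, 10.7% in the inflamed 1-3 and 7.01% in the inflamed 2-1. The Fbxo22 shares in the same order were 54.5%, 45.5%, 27.3%, 18.2% and 9.09%. In culture 1-B, 2 and 2-B, 55.6%, 58.9% and 73.4% of the 214 other variants were called, also without overlap with the tumours. The Fbxo22 shares there were 72.7%, 81.8% and 90.9%. With 2 inflamed, 2 excluded and 1 desert tumour, no test between phenotypes was made.

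The median fraction of the called Fbxo22 variants was 0.0898, 0.0993 and 0.135 in the culture. In the tumours it was 0.0471 (inflamed 1-3), 0.0545 (inflamed 2-1), 0.0563 (excluded 1-4), 0.0471 (excluded 2-2) and 0.0568 (desert). The group means were 0.108 ± 0.0240 (n = 3) and 0.0523 ± 0.00487 (n = 5), again without overlap, and variants that drop below detection leave the tumour medians. Over all other variants the library medians were 0.430 to 0.431 in the culture and 0.124 to 0.283 in the tumours. Biopsies contain host DNA, so a lower share of tumour cells and loss of an allele cannot be told apart from 1 variant.

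To set the tumours on 1 scale, each was described by its median ratio to the culture mean over the 258 variants called in all 8 libraries, which was 0.246 (inflamed 1-3), 0.295 (inflamed 2-1), 0.477 (excluded 1-4), 0.278 (excluded 2-2) and 0.627 (desert). The 17 Fbxo22 tumour calls had ratios to their own culture mean of 0.320 to 0.837 with a median of 0.505, and 13 of 17 were above the ratio of their library. The 132 tumour calls of other variants under 0.25 had a median ratio of 0.504, with 69 above their library's ratio. A call needs reads enough to pass the caller. Of the Fbxo22 variants not called, some had a scaled culture level below the lowest fraction called in that tumour. These were 6 of 9 (inflamed 1-3), 3 of 10 (inflamed 2-1), 3 of 6 (excluded 1-4), 2 of 8 (excluded 2-2) and 1 of 5 (desert).

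**Figure D3:**
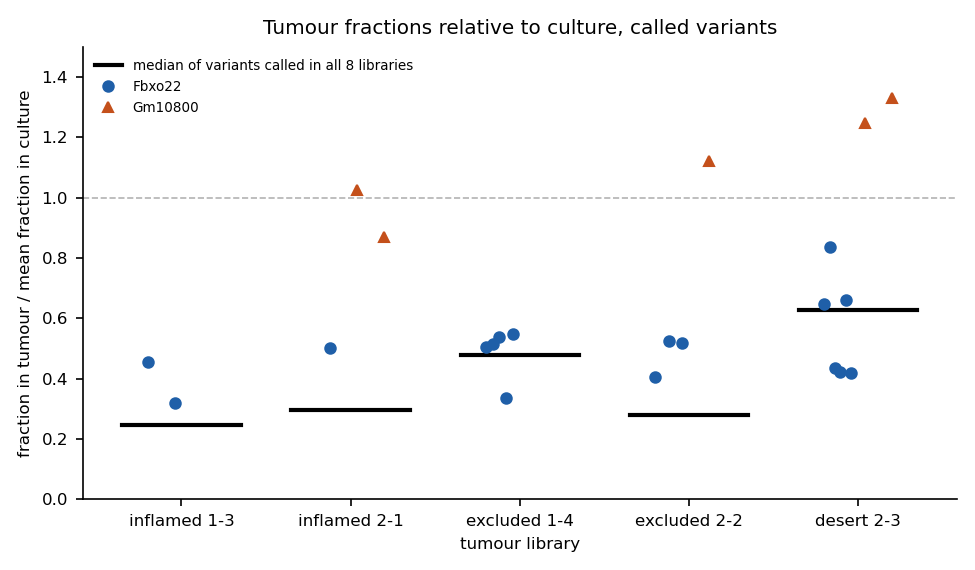
Ratio of the fraction in each tumour to the variant's mean culture fraction, for called Fbxo22 variants (circles) and Gm10800 variants (triangles), with the library's median ratio as a black bar and equality as a dashed line. Fbxo22 ratios run from 0.320 to 0.837 and Gm10800 ratios from 0.869 to 1.33, above the bar in each library with a Gm10800 call.

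Culture and tumours were compared by limma on fractions divided by these ratios. No member (0 of 21) was among the 258 variants of that fit, of which 21 passed an adjusted p of 0.05 (8.14%). In a fit of the 371 variants called in at least 2 culture libraries and 2 tumours, libraries without a call being left out of that variant's fit, 8 members had a value and 1 was called, the Gm10800 variant S60F, while 11.6% of all 371 were called. Nothing is read from that count, because a tumour value enters only where its fraction was high enough to be called, and the differences of members are given without a p. Of the 6 Fbxo22 variants, 4 had scaled differences above 0 and 2 below. L36M, with values in 3 culture libraries and 4 tumours, had a scaled difference of 0.0426 ± 0.0207 (SE). Without the scaling, 6 of 6 Fbxo22 differences were below 0 and 4 of 6 were called, beside 95.7% of all variants. The scaled differences of 4 Fbxo22 variants therefore changed sign with the scaling.

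The Gm10800 fractions were lower and narrower. Its 19 calls ranged from 0.0219 to 0.0409, with a median of 0.0252 in the culture and 0.0280 in the tumours. Of these, 7 of 19 were tier 2 (36.8%) against 336 of 3202 calls of the variants outside both genes (10.5%). Among the other variants with a mean culture fraction under 0.25, 71 of 534 calls were tier 2 (13.3%). Their median fraction, 0.0691, was still above that of the Gm10800 calls, 0.0267. The spleen fraction was above 0 for 10 of 10 variants, at 0.0148 to 0.0193 (100%, Wilson 95% interval 72.2 to 100), against 38 of 600 variants outside both genes (6.33%, 4.65 to 8.57) and 0 of 11 in Fbxo22 (0 to 25.9). Library fractions were 1.25 to 2.46 times the spleen fraction of the same variant. Variants were called against the spleen, which favours library fractions above it, so nothing is read from these ratios. Of the 11 variants outside both genes whose culture mean was no higher than that of M209L (0.0363), 4 had a spleen fraction above 0 (36.4%), from 0.00645 to 0.0167.

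**Figure D4:**
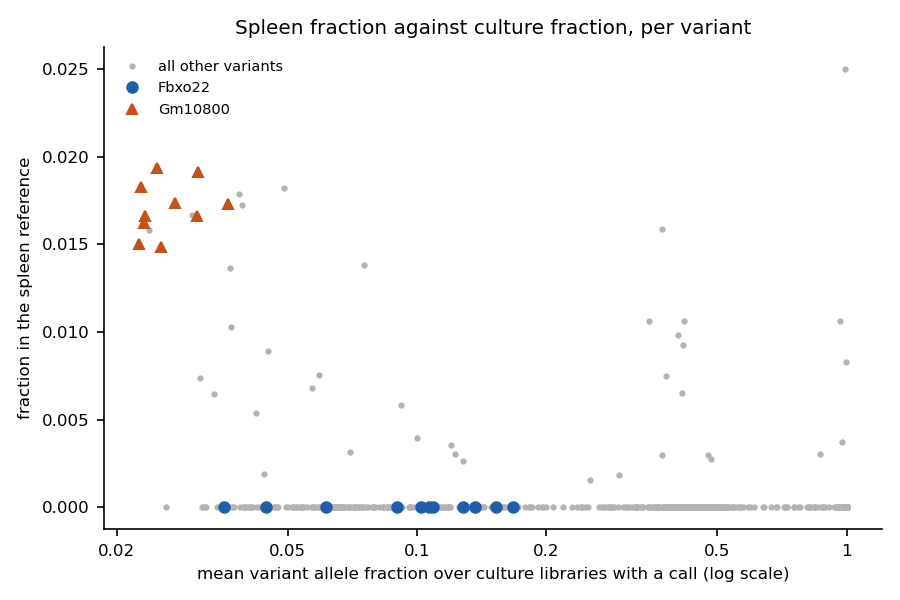
Fraction in the spleen reference against the mean culture fraction (log axis), 1 point per variant, for Fbxo22 (circles), Gm10800 (triangles) and all other variants (grey). The 10 Gm10800 variants sit between 0.0148 and 0.0193 in the spleen, and the 11 Fbxo22 variants at 0.

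D7Y and H6R, 2 bases apart, were called at 0.0314 and 0.0316 in culture 2 and at 0.0301 and 0.0304 in culture 2-B. D7Y was also called in the inflamed tumour 2-1 at 0.0267 and in the desert tumour at 0.0409, the highest Gm10800 value, where H6R was not called. The values of the pair were thus within 1.01 times of each other where both were called, and the pair was called together in 0 tumours. S60F stood at 0.0247 in culture 2, 0.0250 in culture 2-B, 0.0256 in the inflamed tumour 2-1 and 0.0280 in the excluded tumour 2-2. R64S, 11 bases away, stood at 0.0219 in culture 1-B, 0.0233 in culture 2 and 0.0282 in the desert tumour. Tumour values of S60F and R64S were above all of their culture values. The lowest fraction called for any variant was 0.0256 in the inflamed tumour 2-1, 0.0248 in the excluded 2-2 and 0.0257 in the desert tumour. Lower tumour values of S60F and R64S could thus hardly be called, and nothing is read from this order.

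The other Gm10800 variants were each seen in 1 library. M209L at 0.0363, H126L at 0.0273 and H13R at 0.0254 were called in culture 1-B alone. R16S at 0.0231 was called in culture 2 alone. V19E at 0.0228 and the splice donor change at 0.0232 were called in culture 2-B alone. In all, 6 variants had a single call, 0 of 10 were called in all 3 culture libraries, and 7 were seen in no tumour.

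Calls of Gm10800 numbered 4, 5 and 5 in culture 1-B, 2 and 2-B, and 0 (inflamed 1-3), 2 (inflamed 2-1), 0 (excluded 1-4), 1 (excluded 2-2) and 2 (desert) in the tumours. The means were 4.67 ± 0.577 and 1 ± 1, without overlap, with the same restriction to culture variants. The 214 other variants under 0.25 did not overlap either, with 55.6% to 73.4% called per culture library and 7.01% to 20.1% per tumour. Nothing is read from this difference. The median called fraction was 0.0254 ± 0.000862 in the culture (n = 3) and 0.0296 ± 0.00442 in the 3 tumours with a call. The 5 tumour calls had ratios to the culture mean of 0.869 to 1.33 with a median of 1.12, and 5 of 5 were above their library's ratio. In each of these 5 calls the scaled culture level lay below the lowest fraction called in that library.

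S60F was the called member of the fit with missing calls. Its scaled means were 0.0249 in the culture and 0.0936 in the tumours, a difference of 0.0687 ± 0.0146 (SE, 2 culture libraries and 2 tumours, higher in 2 of 2 tumours), where 1.35% of all variants were called higher. Unscaled, the difference was 0.00187 ± 0.00898 and the call was lost, so it rests on dividing tumour fractions near the culture level by library ratios under 1. The call was also lost without the trend in the limma prior. At its culture mean times the library ratio, S60F would stand at 0.00735 (inflamed 2-1) and 0.00691 (excluded 2-2). Both lie below the lowest fraction called in that tumour. Only a higher scaled tumour value could thus enter, and nothing is read from the call. D7Y had a scaled difference of 0.0471 ± 0.0151 on 2 culture libraries and 2 tumours and was not called, with the same limit on its tumour values.

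The sequence around each variant was then searched in GRCm38.p6, on both strands of the 66 sequences of the primary assembly. For Fbxo22, 0 of 11 words of 31 bases centred on the variant occurred elsewhere, with the reference or the alternate base, exactly or with up to 2 mismatches (0%, Wilson 95% interval 0 to 25.9). BLAST of the 1206 coding bases gave 7 alignments, all within the gene, and 0 outside it at an E value limit of 1e-05. A copy that the reference assembly lacks would not be seen by this search.

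For Gm10800, 5 of 10 reference words occurred elsewhere exactly, with up to 209 copies, and 10 of 10 did so with up to 2 mismatches, in 11 to 557 places. Words with the alternate base occurred elsewhere exactly for 2 of 10 (20.0%, 5.67 to 51) and with up to 2 mismatches for 10 of 10, against 8% and 28.5% of the variants outside both genes. The 2 exact matches were those of the neighbours D7Y (1 copy) and H6R (2 copies), whose alternate words are shown with the called base in capitals.
D7Y alternate word, chr2:98667268-98667298, plus strand: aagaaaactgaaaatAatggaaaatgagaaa
H6R alternate word, chr2:98667270-98667300, plus strand: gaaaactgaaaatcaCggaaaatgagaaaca

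Places within 2 mismatches of either word were then split by base, and shares are of places with the called or the reference base. The called base stood in 250 copies of the H6R word beside 418 with the reference base (37.4%). It stood in 11 copies of the R16S word beside 11 (50.0%). The R16S word had 101 places with the alternate and 100 with the reference base as the query, so most of its places carry neither base. For D7Y it stood in 9 beside 546 (1.62%), for R64S in 10 beside 288 (3.36%) and for S60F in 5 beside 317 (1.55%). The splice donor change had 3 beside 282, and M209L had 1 beside 321. For V19E, H126L and H13R it stood in 0 copies, beside 11, 135 and 206 with the reference base. Thus 7 of 10 called bases were present in a close copy elsewhere (70%), against 18.4% of the 570 single-base variants outside both genes and 0 of 10 in Fbxo22.

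**Figure D5:**
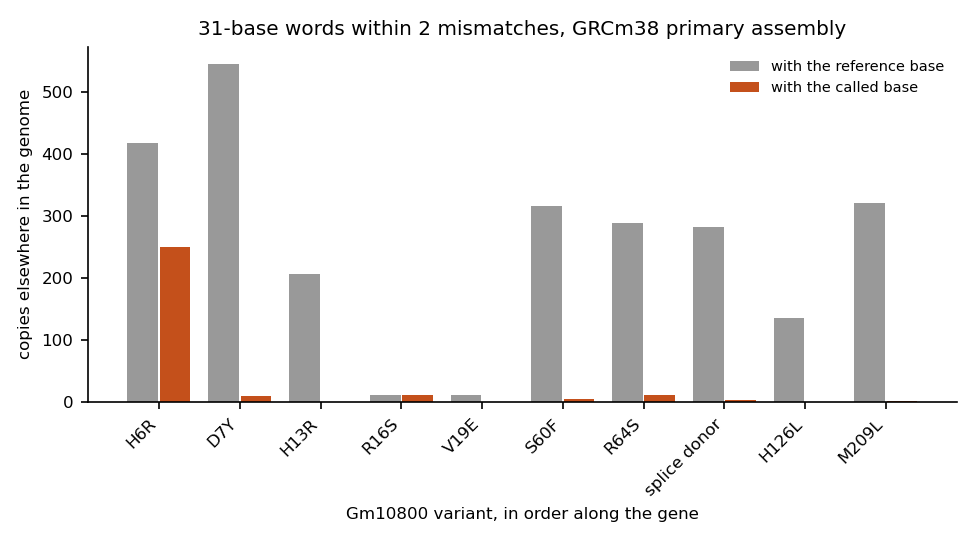
Number of places elsewhere in the primary assembly within 2 mismatches of the 31-base word around each Gm10800 variant, split by whether the place has the reference base (grey) or the called base (orange). Places with another base at the variant position are not drawn. H6R has 250 places with the called base and R16S has 11, while V19E, H126L and H13R have 0.

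BLAST of the whole Gm10800 gene gave 317 alignments outside it of at least 100 bases and 90% identity, on 5 chromosomes, the longest of 756 bases. Within the gene, bases 234 apart were identical in 67.2% of pairs, the highest share of the distances tested. In Fbxo22 coding sequence the best distance was 168 bases with 29.9% identity. At 234 bases from a Gm10800 variant, the base equalled the alternate in 1 of 12 comparisons, that of S60F. The neighbouring predicted gene Gm10801 (chr2:98662237-98664083) carried 4 variants with 8 calls, at 0.0339 to 0.0901. Their spleen fractions were 0.0137 (F44L), 0.0179 (R68H) and 0 (H41D and F102S). With up to 2 mismatches, the alternate words occurred elsewhere in 619 (R68H), 191 (F102S), 4 (F44L) and 0 (H41D) places. Many near copies were thus not particular to Gm10800.

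The kind of base change was also counted in both genes. Of the 10 single-base Fbxo22 variants, 6 changed a base of a CpG dinucleotide and 5 were C-to-T or G-to-A changes there (50.0%, Wilson 95% interval 23.7 to 76.3). The share was 0 of 10 in Gm10800 (0 to 27.8), where 2 variants changed a base of a CpG, and 44 of 570 among the variants outside both genes (7.72%, 5.80 to 10.2). The intervals of Fbxo22 and Gm10800 overlap, and the CpG sites available in each gene were not counted. The intervals treat variants as independent, which neighbours in 1 gene need not be.

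A single Fbxo22 call, of tier 2 and in culture 2 alone at 0.0444, lay at an exon boundary. The last 4 bases of intron 1 and the last 4 of exon 1 differ at 1 position only, and A55209351G gives the intron the base that a joined exon 1 and exon 2 would have there. Both stretches are shown with that position in capitals. Beyond these 4 bases they also differ at positions left in lower case.
End of intron 1 and start of exon 2, chr9:55209341-55209367, plus strand: ttgcatccccAgagtatgccgcctgtg
Last 12 bases of exon 1 (chr9:55209177-55209188) joined to the start of exon 2 (chr9:55209353-55209367), plus strand: tcgggtagccGgagtatgccgcctgtg

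Over the 6 junctions of the gene, 24 intron positions lie within 2 bases of an exon. At 12 of these the joined exon has another base, and 1 of the 12 was called with it. Within 4 bases the figures were 48, 27 and 1. Words of 31 bases across each of the 6 joined junctions were found 0 times in the genome. Whether reads of joined exons are present in these libraries was not tested, since the table holds calls and not reads.

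The other genes of the same pathway were looked up by a list of 90 genes, 79 F-box genes by symbol and 11 genes of the SCF core or of FBXO22 substrates. Fbxo22 and Fbxw9 carried a variant, and 0 of the 11 did. Among protein-coding genes this was 2 of 88 on the list (2.27%) beside 287 of 21924 in the whole annotation (1.31%), and nothing particular to the pathway is read from the count. Fbxw9, which encodes another F-box protein, had 2 variants, and S50T (T85060275A) was called in all 8 libraries. Its fractions were 0.404, 0.432 and 0.407 in the culture and 0.118 to 0.390 in the tumours, above every Fbxo22 fraction of the same library.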

How the data were processed

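Exome DNA was measured in 3 culture libraries and 5 tumour libraries (pooled biopsies in the paper), with 3 spleen libraries that have no calls of their own. The authors mapped paired reads of 75 bases to GRCm38 with BWA, realigned and marked duplicates after GATK practice, and called somatic variants with Strelka, with no versions stated. The deposited allele fractions are alternate reads over reads per call, in the library and in the spleen, without depth. The deposited tier score of a call is 1 or 2. Another 7 of the 10 value columns per sample, 2 of them filled, stayed unused. The table lists protein-changing and splice variants.

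Both genes, their lists and tests were chosen with earlier results of these data known. The genes named are Fbxo22, Gm10800, the 3 other genes with the most variants per kb among those with at least 5, the pathway genes with a variant and Gm10801. Exons came from GENCODE M21. Words of 31 bases were searched with a seeded scan that was tested on planted copies, and BLAST 2.17.0 aligned the genes. Fractions were compared with limma 3.58.1 (R 4.3.3; lmFit, eBayes with trend, Benjamini-Hochberg over all variants, adjusted p under 0.05), tested on simulated data. Exact permutation tests of calls and fractions per library (SciPy 1.17.1) were run but are not given, since the members were chosen on these values and entered the table through the culture. The fit with missing calls was added after the values were seen. The limma p-values behind the counts of called variants reflect library-to-library spread alone, and that spread could be technical. Intervals are Wilson 95%. Alternatives were no scaling, other variant sets and tiers, no trend, a block, longer words, mismatches and leaving out each library.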

Additional observations from a re-analysis of the deposited data

How the results depend on the processing

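The counts of calls per library kept their direction with tier 1 calls or single-base variants alone. Leaving out 1 library at a time, the difference between culture and tumours was 5 to 6.25 calls for Fbxo22 and 3.42 to 4 for Gm10800, and the difference in median Fbxo22 fraction was 0.0422 to 0.0650, all in the same direction, which the restriction of tumour calls to culture variants favours. With variants called in all 3 culture libraries only, the Fbxo22 difference was 0.0555 (4 tumours left). Gm10800 has no such variant (0), so that alternative could not be run for it. Without scaling, 255 of 258 and 355 of 371 variants were called in place of 21 and 43, by construction, since every tumour has a ratio under 1. Unscaled differences changed sign for G9S (-0.0830), L36M (-0.0411), R43W (-0.0198) and R95* (-0.0456). The scaled difference of R56H ran from -0.0516 to 0.000596 and that of N225T from -0.0224 to 0.00612 over the libraries left out, the sign turning without the desert tumour and without culture 2-B. S60F could not be tested without culture 2, culture 2-B, inflamed 2-1 or excluded 2-2, each of which holds 1 of its 4 calls. The first number in the titles as a replicate block gave 22 and 40 calls, changed no call of a member, and the numbers are not stated to pair libraries. The share of Gm10800 words found elsewhere was 100% with up to 2 mismatches for either base, 0% at 51 and 75 bases with the alternate base, and 30% at 51 and 0% at 75 bases with the reference base. Fbxo22 stayed at 0% in each. Depth is unknown, so what a missing call allows cannot be bounded, and with 3 culture libraries and 5 tumours the precision is limited by their number.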
